A study of Mus musculus with 15 samples.

Results

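The proteasome subunit genes were followed in laser-captured mouse Purkinje cells (PCs) over the first 3 weeks after birth. Members were the protein-coding genes whose GENCODE M21 symbol consists of Psm, one letter from a to g and a number, which gave 48 genes of 38561 gene rows, 21263 of them protein-coding. Symbols with a further suffix (Psmc3ip, Psme2b and the pseudogenes Psmb5-ps, Psmb7-ps2 and Psmb6-ps) were not members. The RNA came from cerebellar PCs of mice with no treatment named, whose strain is written C56/BL6 in the labels and C57/BL6 in the study's methods. The 15 samples covered P0 (the day of birth), P4, P8, then P14 and lastly P21, each in 3 biological replicates. The study's methods give male animals, single PC somata from P4 onwards, and clusters of PCs at P0, so that at P0 the age and the way of capture cannot be told apart. In such bulk samples, fewer cells of a type and less RNA per cell cannot be told apart either.

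The proteasome is the cell's main protease for proteins tagged with ubiquitin. Its barrel-shaped 20S core is made of outer rings of alpha subunits (Psma genes) around inner rings of beta subunits (Psmb genes), and the beta subunits encoded by Psmb5, Psmb6 and Psmb7 carry the catalytic sites. The 19S regulatory particle caps the core: the ATPases of its base (Psmc genes) unfold the substrate, and the lid (Psmd genes) removes ubiquitin. Alternative caps are PA28 alpha and beta (Psme1 and Psme2), PA28 gamma (Psme3) and PA200 (Psme4), while Psmf1 encodes the inhibitor PI31. In cells exposed to interferon, Psmb8, Psmb9 and Psmb10 replace the catalytic subunits to form the immunoproteasome, which makes peptides for class I antigen presentation. In neurons the proteasome is known for roles in axon growth and in the remodelling of synapses.

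Total counts on genes ranged from 3409371 to 7814951 per sample, and replicates were distinct libraries (chi-square per gene of 19.3 to 59.5 between them). All 6 PC markers had counts in every sample, and their summed level rose from 4534 to 5991 CPM (reads relative to the library's total times its TMM factor) at P0 to between 36840 and 46587 at P21. Markers of other cells were also present. The 8 glial markers summed to 1708 to 2403 CPM at P0, 5313 to 6079 at P14 and 3606 to 4945 at P21, and the 5 oligodendrocyte markers to 13.6 to 35.8 and 395 to 844 CPM. The granule neuron markers Gabra6 (at 0 in 5 samples) and Cbln1 summed to 55.4 to 88.7 CPM at P0, 146 to 365 at P14 and 89.5 to 150 at P21, and 1 of the 2 rose with day. The 4 microglial markers stayed between 0 and 25.4 CPM over the 15 samples, with Cx3cr1 and C1qa at 0 in 9 samples each. The 3 vascular markers (each at 0 in 1 sample) summed to 33.4 to 120 CPM at P0 and 16.0 to 35.3 at P21. The share of reads that the counting assigned to no gene feature was 24.1% to 29.8% at P0, 16.7% to 19% at P14 and 17.2% to 19.1% at P21. Only reads that lay wholly inside a feature were counted, so this share can include reads that fall within genes. The part of these other cells and of this share in the results below was not tested. The members together took 0.817% to 0.899% of all gene counts at P0 and 0.541% to 0.600% at P21. With TMM factors their sum was 7768 ± 442 CPM at P0 and 6616 ± 419 at P21 (SD, n = 3), and the P0 mean was 1.17 times the P21 mean.

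Most proteasome genes did not pass the test for a linear course over the 5 time points, and those that did mostly fell. Of the 48 members, 44 passed the filter on low counts, and Psma8, Psmb8, Psmb9 and Psmb11 did not. For each of 14293 genes, the slope of log2 expression on age in days was fitted with edgeR and its quasi-likelihood test, and an adjusted p under 0.05 counted as a call. Psmd8 was the 1 member that rose (2.27% of 44), where 12.1% of all genes tested rose. Psme1, Psme2, Psma7, Psmb6, Psma6, Psmc6 and Psmb3 fell (15.9% of 44), where 14.1% of all genes fell. In either direction 18.2% of the members were called, beside 26.2% of all genes. The share of falling members was therefore close to that of all genes, and the share of rising members was lower, with no test of that difference. Over the 44 members the slopes had a median of -0.0091 log2 units per day, and over all genes of -0.0077. At an unadjusted p of 0.05, 3 members rose and 13 fell, beside 16.6% and 20.1% of all genes. Without the P0 samples, 2 members rose (Psmf1 and Psmg2, and not Psmd8) and 8 fell (the same 7 and Psmd6). These directions depend on the scaling: with total counts only, 0 members rose and 19 fell, and 70.0% of all called genes fell instead of 53.9%. The median P21-to-P0 difference of all genes was -0.11 log2 with TMM factors and -0.46 with total counts only, so all changes given here are relative to the TMM baseline.

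**Figure D1:**
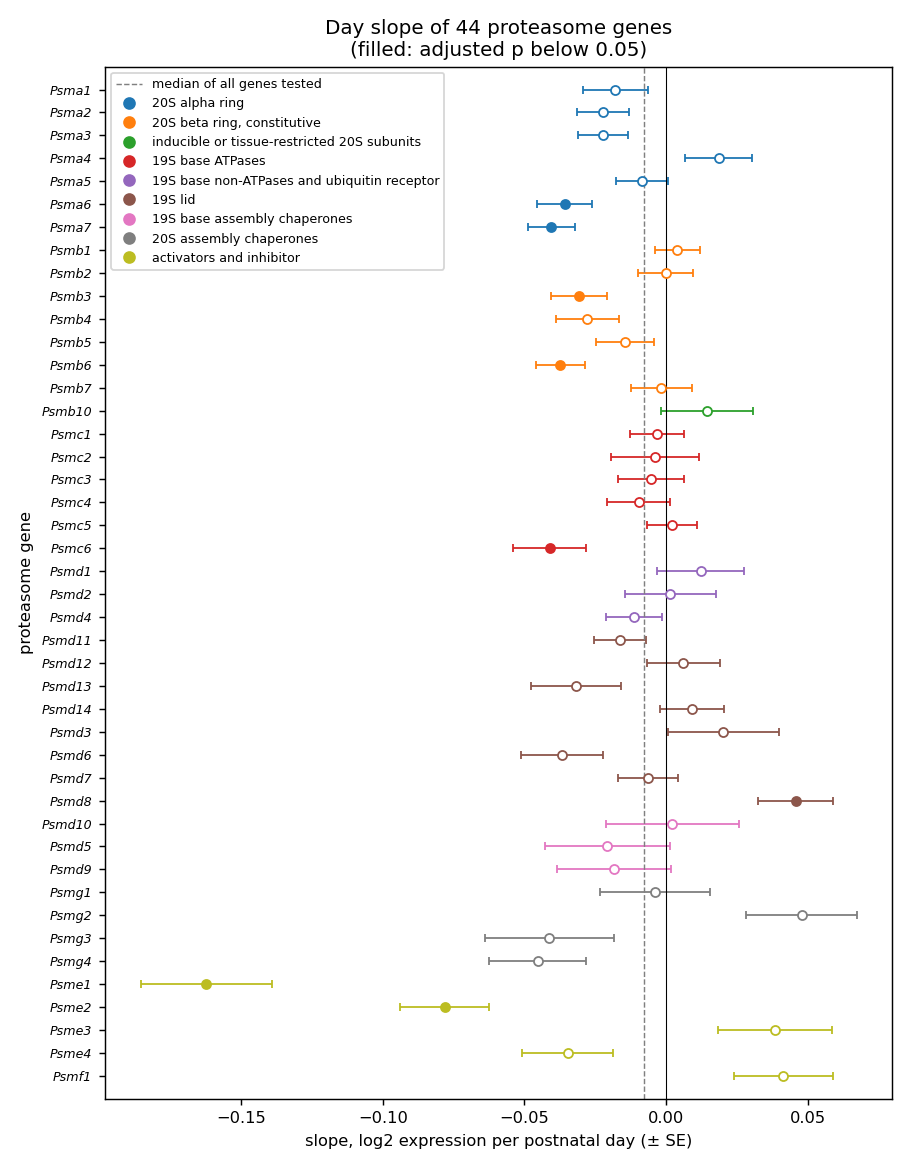
Slope of log2 expression per postnatal day (horizontal axis, log2 units per day, ± SE from edgeR, 15 samples) for the 44 proteasome genes tested, coloured by the part of the proteasome they encode. Filled points passed an adjusted p of 0.05 over all 14293 genes, and the dashed line is the median slope of all genes, -0.0077. Psme1 and Psme2 lie farthest to the left, and Psmd8 is the only filled point to the right of 0.

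The largest fall belonged to the PA28 genes. Psme1 (ENSMUSG00000022216, chr14:55578123-55581529, plus strand, GRCm38) encodes PA28 alpha, an activator that opens the core without using ubiquitin. Its level was 196, 78.8 and 122 CPM in the 3 replicates at P0, 78.5, 139 and 102 at P4, 66.2, 97.5 and 36.1 at P8, 42.7, 39.0 and 32.8 at P14, and 7.33, 5.29 and 23.5 at P21. Every P14 and P21 sample lay below every P0 and P4 sample, and every P21 sample below every P14 sample. The P0 mean was 11 times the P21 mean. The slope was -0.16 ± 0.023 log2 units per day (SE, adjusted p = 3.43e-05), and the P21-to-P0 difference was -3.43 ± 0.54 log2 (adjusted p = 2.17e-04 by edgeR). In single samples the counts were low at P21, with 22, 25 and 147 reads. An exon of Psme1 shares 14 bases with one of Emc9 on the opposite strand, and whether the counting used strand is not given in the sources used here.

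Psme2 (chr14:55587441-55591113, minus strand) encodes PA28 beta, the partner of PA28 alpha in one ring, and lies near Psme1. It measured 56.2, 41.8 and 55.0 CPM at P0, 38.4, 69.0 and 51.5 at P4, 26.8, 37.1 and 35.2 at P8, 19.7, 21.4 and 21.7 at P14, and 14, 25.6 and 18.6 at P21. Every sample from P8 on lay below every P0 and P4 sample, whereas P14 and P21 overlapped. The slope was -0.078 ± 0.016 log2 units per day (SE, adjusted p = 9.72e-04 by edgeR), and the P21-to-P0 difference was -1.39 ± 0.37 log2 (adjusted p = 0.011). Without replicate 1 of P21 that difference did not pass (-1.21 log2, adjusted p = 0.055 by edgeR). Psme2b, a near copy of Psme2 on chromosome 11, is listed with 3287 counts over the 15 samples against 2902 for Psme2. Its means ran from 54.7 ± 7.09 CPM at P0 to 23.7 ± 2.68 at P21 (SD, n = 3; slope -0.070, adjusted p = 0.0020 by edgeR). How reads were divided between these 2 genes is uncertain, and so is the level of Psme2. The ratio of Psme1 to Psme2 CPM ranged from 1.89 to 3.49 at P0 and from 0.207 to 1.27 at P21, and the 2 ranges did not overlap.

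The start regions of both PA28 genes are shown because both genes fell. Sequences are from RefSeq on GRCm38.p6, 5′ to 3′ on the gene's strand, with matches to 5 motifs in capitals. The 30 bases of Psme1 (chr14:55578493-55578522, plus strand) hold a reverse-strand match to the interferon-stimulated response element (GAAA, any 2 bases, GAAA). The match begins at base 10 from the RefSeq start used, which lies 134 bases from the start of the GENCODE principal transcript. The 238 bases upstream of Psme2 (chr14:55591114-55591351, minus strand) hold a GC box, GGGCGG, on the reverse strand.
Psme1: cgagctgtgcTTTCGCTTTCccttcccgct
Psme2: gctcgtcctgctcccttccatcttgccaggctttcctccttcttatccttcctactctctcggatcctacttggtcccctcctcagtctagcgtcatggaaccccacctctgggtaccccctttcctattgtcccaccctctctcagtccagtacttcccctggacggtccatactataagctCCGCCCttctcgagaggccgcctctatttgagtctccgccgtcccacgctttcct

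The other caps followed no common course. Psme3, which encodes the nuclear PA28 gamma, had means of 58.3 ± 7.41 CPM at P0, 46.5 ± 35.3 at P4 and 86.2 ± 19.3 at P21 (SD, n = 3), and its slope of 0.038 did not pass the test (adjusted p = 0.18 by edgeR). The P4 spread comes from values of 9.54, 79.8 and 50.3 CPM. Psme4, which encodes PA200, measured 100, 58.4 and 67.5 CPM at P0, 57.7, 75.2 and 69.2 at P14 and 36.7, 43.8 and 28.5 at P21. All P21 samples lay below all P0 and all P14 samples. Its slope did not pass (-0.035, adjusted p = 0.12), but the P21-to-P0 difference did (-1.06 ± 0.33 log2, adjusted p = 0.031). This call was lost without replicate 1 of P0 (adjusted p = 0.12) and without replicate 1 or 3 of P21 (0.080 and 0.12). Psmf1, the gene of PI31, measured 115, 50.5 and 19.2 CPM at P0 and 108, 108 and 125 at P21, which overlap, and its slope of 0.041 did not pass (adjusted p = 0.092 by edgeR).

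**Figure D2:**
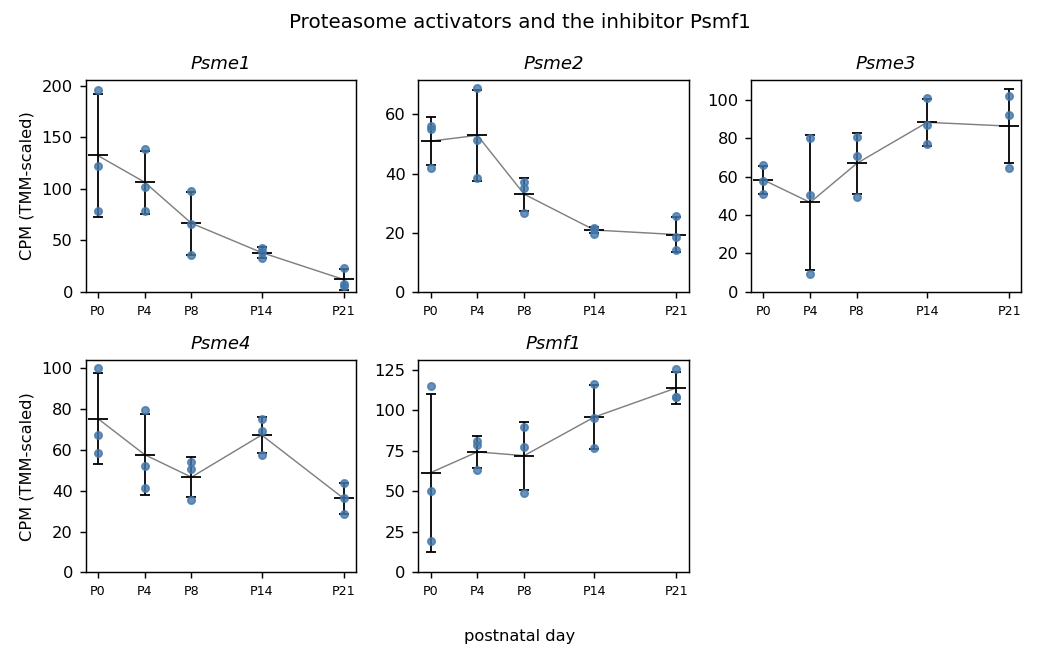
CPM (vertical axis, TMM-scaled, starting at 0 with its own range in each panel) of the 4 activator genes and the inhibitor gene Psmf1 at each postnatal day (horizontal axis). Dots are the 3 replicates, bars the mean ± SD. Psme1 drops from between 78.8 and 196 at P0 to between 5.29 and 23.5 at P21, while Psme3 and Psmf1 overlap between P0 and P21.

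Of the 7 alpha ring genes, Psma6 and Psma7 fell and the other 5 did not pass. Psma7 (chr2:180036374-180042433, minus strand) measured 569, 601 and 465 CPM at P0, 484, 651 and 471 at P4, 428, 593 and 440 at P8, 421, 388 and 409 at P14, and 297, 342 and 287 at P21. All samples of P14 lay below those of P8, and all of P21 below those of P14. Its slope was -0.041 ± 0.0083 log2 units per day (SE, adjusted p = 0.0012 by edgeR). Psma6 (chr12:55384222-55418454, plus strand) measured 384, 241 and 459 CPM at P0, 345, 422 and 349 at P4, 350, 324 and 267 at P8, 215, 247 and 277 at P14, and 203, 269 and 229 at P21. P0 and P21 overlapped because of the second P0 replicate, and the slope was -0.036 ± 0.0097 (adjusted p = 0.0098 by edgeR). The slopes of Psma1, Psma2, Psma3 and Psma5 lay between -0.022 and -0.0085, with adjusted p of at least 0.071. Psma4 had a slope of 0.019 (adjusted p = 0.28) and means of 254 ± 107 CPM at P0 and 300 ± 17.3 at P21. Psma8, the testis-restricted alternative to Psma7, had 17 counts in 2 samples, both at P0, against 36510 counts for Psma7 over the 15 samples.

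Of the 7 constitutive beta ring genes, Psmb6 and Psmb3 fell and the other 5 did not pass. Psmb6 (chr11:70525367-70527858, plus strand) encodes the subunit with caspase-like activity. It measured 557, 567 and 683 CPM at P0, 537, 647 and 600 at P4, 534, 768 and 555 at P8, 522, 394 and 405 at P14, and 364, 379 and 368 at P21. The first 3 time points overlapped, all P14 samples lay below all P8 samples, and all P21 samples below all P14 samples. The slope was -0.037 ± 0.0088 log2 units per day (SE, adjusted p = 0.0035 by edgeR) and the P21-to-P0 difference -0.70 ± 0.18 log2 (adjusted p = 0.0080). Psmb3, a structural subunit, had means, in order of age, of 281 ± 31.2, 338 ± 54.6, 312 ± 37.1, 211 ± 11.1 and 211 ± 32.9 CPM (SD, n = 3; slope -0.031 ± 0.0098, adjusted p = 0.025 by edgeR). Its call was lost without replicate 1 of P21. Psmb1, Psmb2 and Psmb7 had slopes between -0.0017 and 0.0039, and Psmb4 and Psmb5 had -0.028 and -0.015 (adjusted p = 0.074 and 0.34). Exons of Psmb7 share up to 253 bases with Nek6 on the opposite strand.

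**Figure D3:**
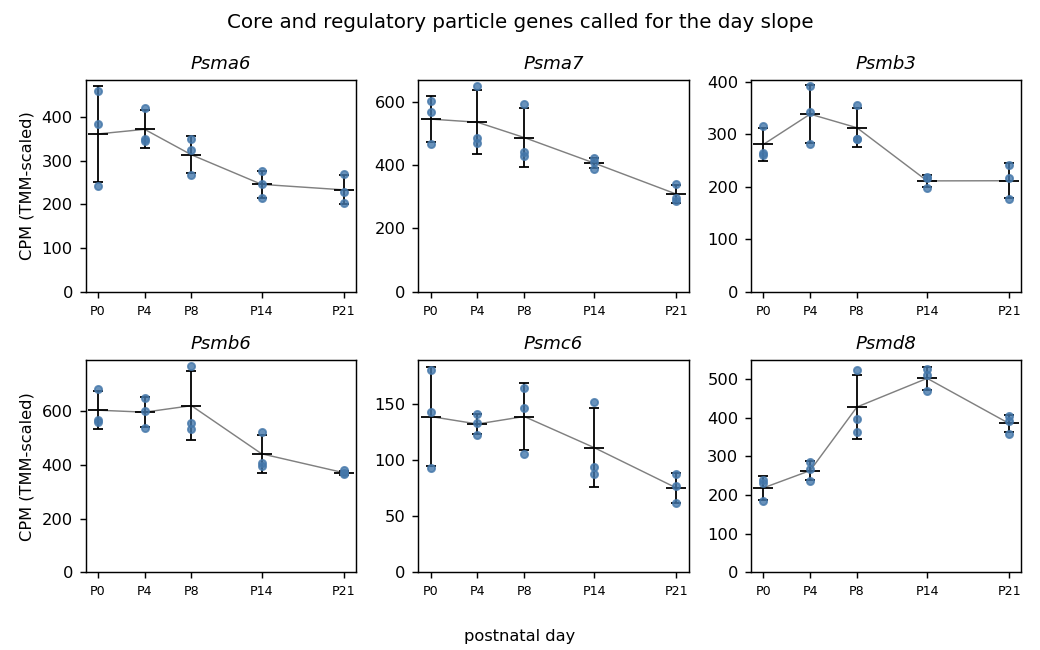
CPM (vertical axis, TMM-scaled, from 0 with its own range in each panel) of the 6 core and regulatory particle genes that passed the test of the day slope, at each postnatal day (horizontal axis). Dots are the 3 replicates and bars the mean ± SD. Psma7 and Psmb6 are lowest in the P21 samples, and the mean of Psmd8 is highest at P14, where its samples lie between 469 and 526.

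The constitutive catalytic genes far exceeded 2 of their 3 inducible counterparts. Psmb5, which encodes the chymotrypsin-like subunit, had 13118 counts over the 15 samples, and Psmb8, its counterpart, had 54 counts in 4 samples, at most 32 in any 1. Psmb6 had 41822 counts, and Psmb9 had 33 counts in 3 samples. Psmb9 shares up to 212 exon bases with Tap1 on the opposite strand. No P21 sample held a count of Psmb8 or Psmb9. For Psmb7, the trypsin-like subunit, with 22170 counts, the counterpart Psmb10 had 3896 counts and was present in all 15 samples. Per kilobase of exon, the mean RPKM of Psmb10 was 29.1 against 82.2 for Psmb7 (35.4%), and by the length of the principal transcript the share was 15.6%. Psmb10 measured 34.3, 42.2 and 21.8 CPM at P0, 67.8, 49.1 and 60.5 at P4, 49.3, 64.9 and 55.4 at P8, 63.1, 43.0 and 32.0 at P14, and 50.7, 55.2 and 55.0 at P21. The P0 samples lay below all P4 and all P21 samples, but neither step passed (P4 minus P0 0.85 ± 0.33 log2, adjusted p = 0.24 by edgeR; P21 minus P0 0.71 ± 0.33, adjusted p = 0.14). Psmb11, the thymus-specific subunit, had 0 counts in every sample, which allows up to 0.387 to 1 CPM at 3 counts per library. That limit covers counting error only.

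The promoter of Psmb6, the core gene with the highest level per length, is shown from 250 bases upstream to the base before the start (RefSeq, GRCm38.p6, chr11:70525107-70525356, plus strand). Capitals mark a reverse-strand GC box and a match to the antioxidant response element TGACNNNGC, the element bound by the Nrf factors that drive proteasome genes, which begins 9 bases before the start.
Psmb6: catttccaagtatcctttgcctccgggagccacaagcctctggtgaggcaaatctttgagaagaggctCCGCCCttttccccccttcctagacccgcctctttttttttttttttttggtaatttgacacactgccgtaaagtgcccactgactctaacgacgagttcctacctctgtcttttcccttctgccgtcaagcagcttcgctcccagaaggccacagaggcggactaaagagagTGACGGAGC

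In the 19S base, 1 of 6 ATPase genes fell. Psmc6 (chr14:45329788-45349705, plus strand) measured 143, 92.6 and 180 CPM at P0, 122, 141 and 133 at P4, 106, 164 and 146 at P8, 93.6, 87.8 and 151 at P14, and 61.3, 87.6 and 76.4 at P21. All P21 samples lay below all samples of the other time points. The slope was -0.041 ± 0.013 log2 units per day (SE, adjusted p = 0.023 by edgeR), and the call was lost without replicate 3 of P0 and without replicate 1 or 3 of P21. The other 5 ATPase genes had slopes between -0.0097 and 0.0021 and adjusted p of at least 0.58. Psmc5 was the highest ATPase gene by RPKM, with means of 216 ± 34.0 CPM at P0 and 207 ± 43.1 at P21 (SD, n = 3). Psmc2, the lowest, had 131 ± 35.9 and 115 ± 43.2 CPM. Exons of Psmc3 share 147 bases with Slc39a13 on the opposite strand. The scaffold genes Psmd1 and Psmd2 and the ubiquitin receptor gene Psmd4 did not pass. Psmd1 had means of 120 ± 50 CPM at P0 and 139 ± 24.1 at P21, and Psmd4 had 237 ± 24.6 and 197 ± 33.7.

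Among the 8 lid genes, Psmd8 rose and the other 7 had no day slope that passed. Psmd8 (chr7:29174188-29180701, minus strand) encodes the lid subunit Rpn12. It measured 233, 184 and 240 CPM at P0, 285, 237 and 268 at P4, 397, 523 and 364 at P8, 512, 469 and 526 at P14, and 359, 404 and 393 at P21. All samples of P8, P14 and P21 lay above all samples of P0 and P4, and the P21 samples lay below the P14 samples. The slope was 0.046 ± 0.013 log2 units per day (SE, adjusted p = 0.014 by edgeR), the test of any pattern gave an adjusted p of 3.77e-04, and the P21-to-P0 difference was 0.82 ± 0.17 log2 (adjusted p = 0.0026). The largest step was from P4 to P8 (0.70 ± 0.17 log2, adjusted p = 0.070). With total counts only the slope was 0.028 and did not pass (adjusted p = 0.12), and without the P0 samples it was also 0.028 (adjusted p = 0.24), while the test of any pattern over the remaining time points still passed.

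Psmd6, the lid gene for Rpn7, passed the test of any pattern (adjusted p = 0.025 by edgeR) but not that of the slope (-0.037, adjusted p = 0.067). It measured 164, 154 and 236 CPM at P0, 213, 258 and 231 at P4, 171, 291 and 277 at P8, 178, 206 and 192 at P14, and 93.0, 146 and 109 at P21. The P21 samples were the lowest of all. Psmd14, which encodes the deubiquitinase of the lid, had means of 128 ± 39.7 CPM at P0, 183 ± 23.0 at P14 and 137 ± 3.93 at P21 (SD, n = 3). Psmd3, the lowest lid gene by RPKM, had 32.9 ± 16.1 CPM at P0 and 42.6 ± 18.5 at P21. The slopes of Psmd3, Psmd7, Psmd11, Psmd12, Psmd13 and Psmd14 lay between -0.032 and 0.020 with adjusted p of at least 0.15. Exons of Psmd13 share 329 bases with Sirt3, and those of Psmd1 share 252 with Htr2b, in both cases on the opposite strand.

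The upstream sequence of Psmd8, the gene that rose, is shown from 250 to 29 bases before the start (RefSeq, GRCm38.p6, chr7:29180702-29180923, minus strand), with its GC box in capitals. It holds none of the other 4 motifs searched.
Psmd8: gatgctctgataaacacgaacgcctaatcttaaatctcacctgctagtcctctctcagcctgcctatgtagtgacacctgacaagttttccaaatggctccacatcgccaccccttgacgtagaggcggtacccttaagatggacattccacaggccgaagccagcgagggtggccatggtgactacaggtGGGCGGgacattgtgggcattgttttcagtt

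None of the 7 assembly chaperone genes passed by edgeR with all samples and TMM factors, where 2 (Psmg2 and Psmg4) had an unadjusted p under 0.05. Psmg4 was called as falling by DESeq2 and by edgeR with total counts only, without replicate 3 of P4 and without replicate 2 of P21. Psmg2 was called as rising by limma-voom and by edgeR without the P0 samples. Psmg1 to Psmg4 help to build the alpha ring, and Psmd5, Psmd9 and Psmd10 hold ATPases of the base together before it joins the core. Psmg2 had a slope of 0.048 (adjusted p = 0.080 by edgeR), with 10.5, 64.1 and 65.7 CPM at P0 and 107, 70.9 and 75.3 at P21. Its lowest P0 value stood far below the other two, and all P21 samples lay above all P0 samples. Psmg4 had a slope of -0.045 (adjusted p = 0.059), with means of 49.9 ± 8.16 CPM at P0 and 26.5 ± 11.4 at P21 (SD, n = 3). Psmg3 ran from 54.3 ± 32.8 to 39.9 ± 23.5 CPM, and Psmg1 from 24.5 ± 10.1 to 22.7 ± 4.61. Psmd5 went from 56.2 ± 14.5 to 43.8 ± 22.0 CPM, Psmd9 from 43.7 ± 26.4 to 40.1 ± 15.9, and Psmd10 from 35.8 ± 31.8 to 36.9 ± 11.9. The samples of P0 and P21 overlapped for Psmg1, Psmg3, Psmd5, Psmd9 and Psmd10.

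Summed over the particle, the core and the cap had different courses. The 14 constitutive 20S genes summed to 4422, 3929 and 4448 CPM at P0, 4084, 5075 and 4332 at P4, 3952, 4838 and 4217 at P8, 4020, 3811 and 3786 at P14, and 3349, 3599 and 3160 at P21. All P21 sums lay below all other sums. The 17 genes of the 19S base and lid summed to between 2683 and 2956 CPM at P0, 2993 and 3266 at P14, and 2203 and 2937 at P21, and these ranges at P0 and P21 overlap. The ratio of 20S to 19S sums had means, in order of age, of 1.54 ± 0.093, 1.60 ± 0.25, 1.45 ± 0.033, 1.24 ± 0.026 and 1.30 ± 0.22 (SD, n = 3). Every P14 ratio (1.23 to 1.27) lay below every ratio of P0, P4 and P8 (1.42 to 1.88), while the P21 ratios spread from 1.08 to 1.52. Psme1 and Psme2 together amounted to 3.07% to 5.71% of the 20S sum at P0 and to 0.637% to 1.33% at P21. Sums give most weight to the highest genes and were not tested. The 19S sum had a mean of 2777 CPM at P0 and of 3115 at P14. It includes Psmd8, the member that rose, which measured 184 to 240 CPM at P0 and 469 to 526 at P14. How much of the course of the 19S sum and of the ratio is due to Psmd8 was not tested.

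**Figure D4:**
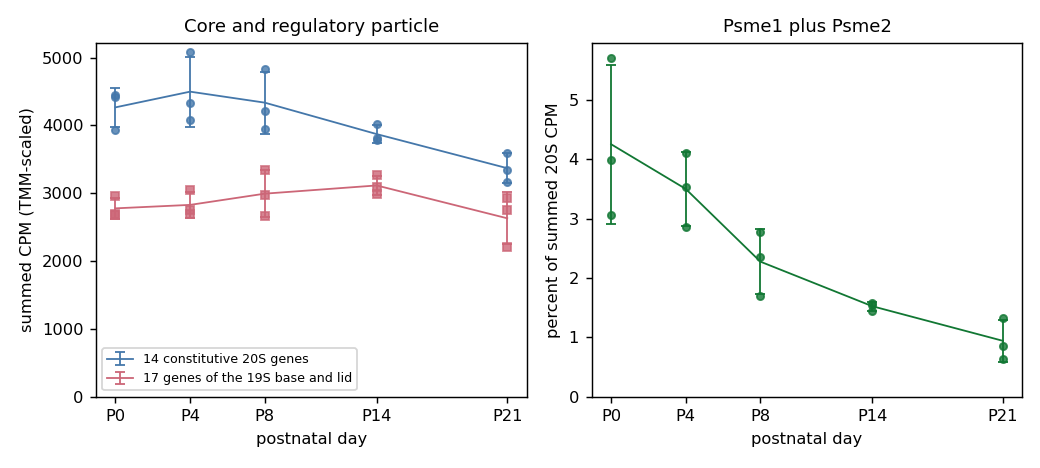
Left, summed CPM (vertical axis, TMM-scaled, from 0) of the 14 constitutive 20S genes (circles) and the 17 genes of the 19S base and lid (squares) in each sample by postnatal day (horizontal axis), with lines and bars for the mean ± SD of 3 replicates. Right, CPM of Psme1 plus Psme2 as a percent of the 20S sum. The 20S sums at P21, from 3160 to 3599, lie below all others, and the PA28 share falls from between 3.07% and 5.71% to between 0.637% and 1.33%.

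Between neighbouring time points edgeR called no member at an adjusted p of 0.05. For P4 against P0, 1.74% of all genes were called higher and 0.231% lower, and at an unadjusted p of 0.05 the members counted 1 higher (Psmb10) and 0 lower, beside 10.1% and 4.72% of all genes. DESeq2 and limma-voom called 0 members in this step. For P8 against P4, 0.882% and 0.252% of all genes were called, and unadjusted 2 members were higher (Psmd2 and Psmd8) and 1 lower (Psmb5), beside 6.65% and 5.16%. DESeq2, limma-voom and the edgeR fit without P0 each called Psmd8 higher. For P14 against P8, 1.29% and 1.38% of all genes were called, and unadjusted 0 members were higher and 2 lower (Psmb3 and Psmb6), beside 6.24% and 7.12%. DESeq2 called Psmb3 and limma-voom 0 members. For P21 against P14, 0.063% and 0.266% of all genes were called, and unadjusted 0 members were higher and 6 lower (Psma7, Psmc2, Psmd6, Psmd8, Psme1 and Psme4), beside 2.48% and 4.54%. DESeq2 and limma-voom called 0 members here.

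From P14 to P21 the members that separated all did so downwards. In 13 of 44 members (29.5%) all P21 samples lay below all P14 samples, where 9.04% of all genes tested did so, and in 0 members did all P21 samples lie above, where 7.56% of all genes did. The 13 came from the alpha ring (Psma1, Psma5 and Psma7), the beta ring (Psmb6 and Psmb7), the ATPases (Psmc2, Psmc3 and Psmc6), the lid (Psmd6, Psmd8 and Psmd14) and the activators (Psme1 and Psme4). The median P21-to-P14 difference was -0.18 log2 over the members and -0.030 over all genes. The difference was below 0 in 32 of 44 members and in 52% of all genes. In the same step the sum of the 8 glial markers went from 5313 to 6079 CPM to between 3606 and 4945, without overlap, and the mean of the granule neuron sum from 225 ± 122 to 122 ± 30.5 CPM. The PC marker sum rose, from between 30705 and 36046 CPM to between 36840 and 46587, also without overlap. The mean of the oligodendrocyte sum rose from 424 ± 10.5 to 569 ± 241 CPM, while the means of the microglial and vascular sums fell. The part of these marker changes in the separation of the members was not tested. Mean CPM was lowest at P21 in 22 of 44 members, against 27.3% of all genes, and highest at P4 in 14 and at P14 in 12 members, against 20.5% and 14.1%. In the step before, from P8 to P14, members separated in both directions, 6 upwards (13.6%) and 7 downwards (15.9%). From P4 to P8, 2 separated upwards and 4 downwards, and from P0 to P4, 1 and 0. The shares of all genes in these earlier steps are not given here.

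Over the whole course, P21 against P0, Psmd8 was the 1 member called higher, where 12.2% of all genes were. The 7 called lower were Psma6, Psma7, Psmb6, Psmc6, Psme1, Psme2 and Psme4 (15.9% of 44, beside 10.6% of all genes). Psma6 passed narrowly (adjusted p = 0.0497 by edgeR). Its call was lost with limma-voom and when any of several single samples was left out, among them each P21 replicate. The call of Psmc6 was lost with limma-voom, without replicate 1 or 3 of P0, and without any 1 of the P21 replicates. Without replicate 1 of P21, 3 were called lower, and without its replicate 3, 4. In 11 members (25%) all P21 samples lay below all P0 samples, beside 18.2% of all genes, and in 3 (Psmb10, Psmd8 and Psmg2) all lay above, beside 19.4%. The test of any pattern called 7 members (15.9%), namely Psma7, Psmb3, Psmb6, Psmd6, Psmd8, Psme1 and Psme2, where 19.3% of all genes passed, and 3 members when replicate 1 of P21 was left out.

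Among genes that work with the proteasome but are not named Psm, 10 were tested and none passed by edgeR with all samples, by DESeq2 or by limma-voom (1 rose, Zfand5, at an unadjusted p of 0.05 by edgeR). The edgeR fit called 1 as rising without the P0 samples, 2 as rising without replicate 3 of P0, and 2 as falling with total counts only. They include Pomp, which helps the core to mature (slope 6.12e-07), the ubiquitin receptor Adrm1, the lid component Sem1 and the deubiquitinases Usp14 and Uchl5. Of the 7 tested regulators, Nfe2l1, which encodes the Nrf1 factor that induces proteasome genes, rose, with mean levels, in order of age, of 86.8, 62.6, 77.8, 103 and 175 CPM (slope 0.055 ± 0.013, adjusted p = 0.0048 by edgeR). On log2(day + 1) it did not pass (adjusted p = 0.11). With 1 sample left out, 1 to 2 regulators rose (2 without replicate 3 of P4) and 0 to 1 fell (1 without replicate 1 of P21). Nfe2l2 (slope 0.063, adjusted p = 0.38) and Ddi2, the protease that activates Nrf1 (slope 0.029, adjusted p = 0.29), did not pass. With all samples, 12.1% of all genes tested rose and 14.1% fell.

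In the list of ubiquitin genes, activating enzymes and shuttles, 4 of 15 rose and 4 fell. Of all genes tested, 12.1% rose and 14.1% fell. No list was tested as a set. Among those that rose were Ubqln2 (slope 0.043, adjusted p = 0.019 by edgeR) and Ubqln1, which encode shuttles that carry ubiquitin-tagged proteins to the proteasome. Among those that fell were Rps27a, which encodes ubiquitin fused to a ribosomal protein (slope -0.068), Uchl1, a neuronal ubiquitin hydrolase (-0.11), and the shuttle gene Ubqln4. With total counts only, Ubqln1 and Ubqln2 no longer passed, and without the P0 samples Ubqln1 and Ubqln4 did not. Ubqln1 was also lost when 1 of several single samples was left out, and Ubqln2 without replicate 2 of P21. In the class I antigen processing list, 1 of 7 tested genes rose, H2-D1 (slope 0.14, adjusted p = 3.72e-04), and none fell, beside the same shares of all genes. Reads of H2-D1 can also match its close paralogs, so its level is uncertain. Tap1, Tap2 and B2m did not pass.

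Levels between genes were compared as RPKM, here the read count relative to the library's total (without the TMM factor) and to the summed exon length in kilobases, averaged over the 15 samples. In the alpha ring, whose products are present in equal numbers in the particle, RPKM ranged from 64.9 (Psma2) to 252 (Psma6), and in the constitutive beta ring from 70.6 (Psmb4) to 286 (Psmb6). The ATPases ran from 29.4 (Psmc2) to 150 (Psmc5), and the lid from 8.76 (Psmd3) to 116 (Psmd8). The base scaffold and receptor ran from 14.9 (Psmd1) to 76.3 (Psmd4), the base chaperones from 6.47 (Psmd9) to 22.8 (Psmd10), the 20S chaperones from 17.7 (Psmg3) to 66.5 (Psmg4), and the caps and inhibitor from 6.90 (Psme4) to 33.9 (Psme1). The length used changes this order: by the principal transcript, a choice made after seeing the data, the highest alpha gene was Psma7 (509) and the lowest ATPase gene Psmc6 (54.3), while Psmb6 (671) remained the highest beta gene.

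RefSeq start regions, from 250 bases before to 50 after the start, matched 40 of the 48 members. The antioxidant response element TGACNNNGC was found on either strand in 6 of 40 (15%; Psmb5, Psmb6, Psmc6, Psmd12, Psmd9 and Psme4) and in 12.5% of 27025 start regions of all genes. The interferon-stimulated response element was found in 5 (12.5%; Psmb3, Psmd4, Psmd9, Psme1 and Psmg4) and in 3.49% of all. The GC box GGGCGG was found in 23 (57.5%) against 35.9%, CCAAT in 13 (32.5%) against 37.9%, and TATAAA in 4 (10%) against 14.2%. Members that fell with day (Psmb6, Psmc6, Psmb3 and Psme1) and members that did not pass both held the first 2 motifs. These matches describe letters in a window and were not tested. For members, the window nearest the start of the GENCODE principal transcript was used, and for all genes the first listed per gene. The regions of all genes were not limited to protein-coding genes, whereas the members were.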

How the data were processed

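RNA of laser-captured PCs was sequenced in 15 samples. Per the labels and the study's methods, the authors amplified it with the SMARTer Ultra Low kit, trimmed reads (Cutadapt 1.2.1), aligned them with GSNAP to GRCm38/mm10, kept unique reads and counted them with HTSeq 0.5.3p9 (intersection-strict). The deposited values are raw counts per Ensembl gene, and the tallies of reads not assigned to a gene were left out of the tests. Unique mapping lowers counts of genes with near copies. The annotation release and strand setting are not given in the sources used here.

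Names, positions and exon lengths were taken from GENCODE M21. Counts were tested with edgeR 4.0.16 in R 4.3.3 (TMM, filterByExpr by time point, quasi-likelihood F test, Benjamini-Hochberg adjustment at 0.05 over 14293 genes), with day as a number and, in a second fit, time point as a factor. CPM used TMM effective library sizes. Slope standard errors were derived from F. P-values measure the spread between these samples, 3 per time point, with depths of 3409371 to 7814951 counts. The test was also run on simulated counts, with an outcome not given here. The slopes set in those counts were steeper than those of all called members except Psme1. That run therefore does not bear on the smaller slopes. Alternatives used DESeq2 1.42.0, limma 3.58.1, other scalings, filters and time scales, a replicate block, and samples left out. Figures were drawn with matplotlib 3.10.9. Members, gene lists and motifs were chosen with earlier results of these data known. Full values were given for the called members with the largest slopes (6 per direction), members called in a step, the catalytic pairs, activators and chaperones, and the highest and lowest member of each group by RPKM, and of the lists for up to 3 called genes per direction. Psmd6 and Psmb3 were added after their values were seen. Paaf1, of the partner list, was not analysed here. A few genes that the naming rule selects are not reported here.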

Additional observations from a re-analysis of the deposited data

How the results depend on the processing

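Of the 8 members called for the day slope, 4 (Psme1, Psme2, Psma7 and Psma6) were called under all 24 alternatives, and none changed sign. The number that rose was 1, but 0 with total counts only, 3 with limma-voom, 2 without P0, and 1 to 2 with 1 sample left out, where the second gene appeared without replicate 1 of P0. The number that fell was 7, but 19 with total counts only, 12 with DESeq2 and 4 on log2(day + 1), the latter without Psmb3, Psmb6 and Psmc6. Any pattern was called in 7 members, 12 with total counts only, and 3 to 8 with 1 sample left out (3 without replicate 1 of P21). For P8 against P4, 1 member (Psmd8) was higher with DESeq2, with limma-voom and without P0. For P14 against P8, 2 were lower with total counts only and 1 with DESeq2. For P21 against P14, 0 to 1 were lower with 1 sample left out (Psme1 without replicate 3 of P21). For P21 against P0, 0 were higher with total counts only, 2 with limma-voom, and 1 to 2 with 1 sample left out (2 without replicate 1 of P0), while 17 were lower with total counts only and 3 to 8 with 1 sample left out (3 without replicate 1 and 4 without replicate 3 of P21). The cause of these differences was not tested.

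Over all genes together, samples with the same replicate number did not deviate together (mean r = -0.0036 over 30 pairs, 0 pairs above 0.1, and 3 of 15 samples closest to their own number). This check cannot exclude a pairing that touches only some genes. With the replicate block, the members called for the slope were the same, while P21 against P0 lost Psma6 (-0.63 log2, adjusted p = 0.073) and Psme4 (-1.03 log2, adjusted p = 0.050) and gained Psmd6. Among uncalled members, 16 changed the sign of their slope in at least 1 alternative. Of those named, Psmg1 had 0.031 on log2(day + 1) and -0.016 to 0.0039 with 1 sample left out. Slopes on log2(day + 1) are per unit of that scale, and all others are per day, so their sizes are not comparable. Psmb7 had 0.026 on log2(day + 1) and -0.0074 to 0.0063 with 1 sample left out. Psmd10 had -0.014 with total counts only, -0.021 on log2(day + 1) and -0.0089 to 0.028 with 1 sample left out. Psmb10 had -0.0027 with total counts only and -0.0094 without P0. The 3 replicates per time point limit what small changes can be called, and the low counts of Psme1 at P21 and of Psmb8 and Psmb9 limit those values.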
